A study of Mus musculus with 6 samples.

Results

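Cytosolic ribosomal protein genes were compared between mammary tumours of 2 mouse crosses. They were chosen by gene symbol: every gene whose name marks a protein of the large subunit (Rpl), the small subunit (Rps) or the stalk (Rplp), with Rpsa and Fau, and without S6 kinases and pseudogenes. Of 12393 genes that the array measured through a probe set (a group of short probes for 1 transcript) annotated to a single symbol, 49 were members, 26 of the large and 23 of the small subunit. Each was read at the brightest of its probe sets. The samples were tumours of adult F1 females. In both groups a PyMT parent contributed the polyomavirus middle T antigen, a viral oncogene that drives mammary tumours, and the other parent was AKR/J in 3 samples (AKR F1 tumours) or DBA/2J in 3 more (DBA F1 tumours). The promoter of the transgene and the strain of the PyMT parent are not stated in the sources used here. Whether each sample came from a separate animal is not stated either, though the sample titles carry different numbers. The p-values thus speak only of the spread among these samples, which may be technical. In whole tumour RNA, fewer cells of a type and less RNA per cell cannot be told apart.

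The cytosolic ribosome translates nearly all cellular mRNA. Its small subunit reads the message and its large subunit joins the amino acids, and each needs its proteins in balanced amounts. The mRNAs of these proteins are among the most abundant in a growing cell, and most begin with a run of pyrimidines, the 5′ terminal oligopyrimidine tract, through which mTOR signalling controls their translation as a group.

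Of the 49 members, 43 had an entry in the RefSeq promoter table of GRCm38.p6, with 51 annotated start sites. The windows below run from 10 bases before to 20 bases after the annotated start, 5′ to 3′, and capitals mark the longest run of C and T. They show 4 members with long runs, the members that lay furthest higher and lower in AKR F1 tumours (Rpl27a, Rpl22l1 and Rpl37) and Rpl3l, a paralog of striated muscle.
Fau (chr19:6057937-6057966, plus strand): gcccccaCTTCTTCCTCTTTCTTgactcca
Rps6 (chr4:86857348-86857377, minus strand): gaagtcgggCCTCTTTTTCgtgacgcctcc
Rpl35 (chr2:39005112-39005141, minus strand): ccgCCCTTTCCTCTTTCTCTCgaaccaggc
Rps10 (chr17:27635225-27635254, minus strand): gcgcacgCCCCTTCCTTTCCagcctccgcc
Rpl27a (chr7:109519185-109519214, plus strand): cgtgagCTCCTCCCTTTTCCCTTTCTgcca
Rpl22l1 (chr3:28805498-28805527, plus strand): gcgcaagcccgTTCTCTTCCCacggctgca
Rpl37 (chr15:5116603-5116632, plus strand): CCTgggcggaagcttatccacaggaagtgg
Rpl3l (chr17:24727816-24727845, plus strand): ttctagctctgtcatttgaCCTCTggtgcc
A run of 7 or more C or T lay in this window at 51.0% of the members' starts and at 17.9% of the 32851 starts of all genes in the table. The letters CTTTCC or CTTTTC were found within 50 bases of the start, on the coding strand, at 37.3% of the members' starts and 8.11% of all starts (43.1% and 15.1% on both strands). The letters CCGGAAG, searched on both strands of the 300-base promoter, were found at 41.2% against 8.86%. In the 17 members with CTTTCC or CTTTTC, 14 lay lower in AKR F1 tumours (median log2 difference -0.10), and in the 26 without, 19 did (median -0.12). Minimum run and motifs were chosen after the data were seen, annotated starts can be off by some bases, and a match of letters is a description only.

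No ribosomal protein gene differed between the crosses past the threshold, and most lay slightly lower in AKR F1 tumours. Differences are given as AKR minus DBA on the log2 scale. Of the 49 members, 38 (77.6%, against 45.4% of all probe sets) lay lower and 11 (against 54.6%) higher in AKR F1 tumours. Their median log2 difference was -0.10, within a range of -0.82 to 1.12. By limma with Benjamini-Hochberg adjustment over all 22626 probe sets, 0 members passed an adjusted p of 0.05, where 0.0972% of all probe sets did (0.0354% higher and 0.0619% lower in AKR F1 tumours). The lowest adjusted p of a member was 0.0922. At an unadjusted limma p under 0.05 there were 7 members lower in AKR F1 tumours (14.3%, against 13.2% of all probe sets) and 2 higher (4.08%, against 12.9%). The first of these shares was near that of all probe sets and the second was below it. With limma's array weights, 17 members passed, but that estimate did not converge and gave 1 array a weight of 38.2 and another 0.123, and 9969 probe sets passed with it.

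Most bright members lay lower in AKR F1 tumours, as did most bright probe sets in general, though in a smaller share. Most members were very bright: their median value was 13.19, and 38 lay in the brightest of 10 equal classes (deciles) of all probe sets. Of these 38, 35 (92.1%) were on the lower side in AKR (median difference -0.14). In the same decile 76.2% of all 2263 probe sets were on that side (median difference -0.21), whereas the median over all probe sets was 0.05. Of the 11 members in dimmer deciles, 8 lay higher in AKR F1 tumours, with a median of 0.20, but they did not all follow their decile. The 4 members in deciles 2 to 4 lay higher, as did those deciles (medians 0.20 to 0.23). The other 7 lay in deciles 6 to 9, with medians from 0.02 to -0.21, and of these Rps27 (decile 6), Rpl12 and Rps25 (decile 7) and Rps6 (decile 8) had the sign opposite to their decile. After quantile normalization, which gives all arrays the same distribution, the members' median was 0.0091, 22 lay lower and 27 higher in AKR F1 tumours, and the brightest decile had a median of 0.02. Centring each array on its median gave the members -0.13 and the brightest decile -0.24. Before quantile normalization the bright members thus lay less far below 0 than the decile they belong to, and 7 of them (18.4%) had an unadjusted limma p under 0.05 on the lower side, against 24.6% of the decile.

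**Figure D1:**
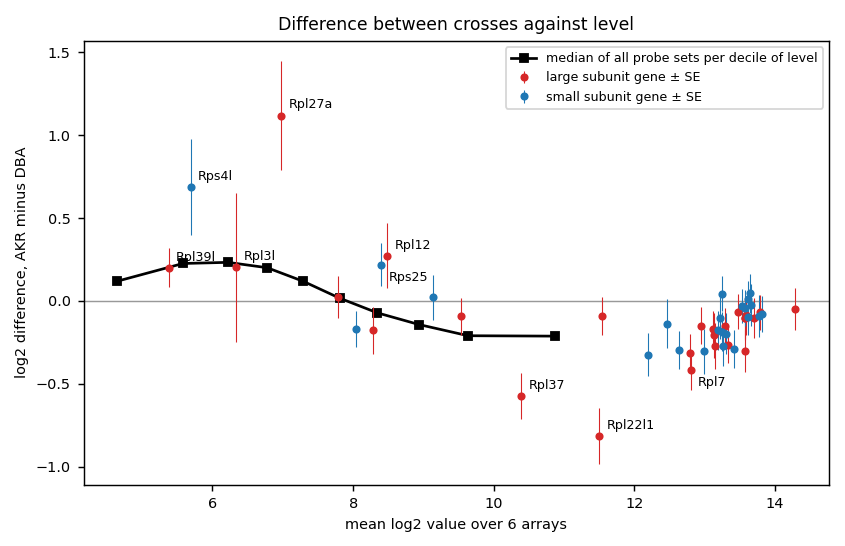
Mean log2 value over the 6 arrays (horizontal axis) and log2 difference, AKR minus DBA (vertical axis), of the 49 ribosomal protein genes, with bars of 1 SE, and the median of all probe sets in each decile of level (black squares). The black line runs from 0.23 in decile 3 to -0.21 in decile 10, and most members, at the right, lie near or above its end.

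The members varied little between arrays of a cross. The median SD within a cross was 0.09 for the 38 bright members and 0.20 for all probe sets of that decile. The crosses were fully separated, with no overlap of their 3 values, in 25 members (51.0%, against 39.2% of all probe sets). AKR was the lower cross in 22 of these (44.9%, against 15.8%) and the higher one in 3 (6.12%, against 23.4%). In the brightest decile AKR was the lower, separated cross in 21 of 38 members, or 55.3%, against 31.8% of all its probe sets, and the higher one in 0 members, against 5.57%. A cut at a mean value of 12 or more gave the same order. Of 35 members at or above it, 54.3% were separated with AKR lower, against 21.4% of 229 probe sets of other genes. Their median difference was -0.14, against -0.15 for those probe sets, and their median SD was 0.09, against 0.19. On the lower side in AKR were 91.4% of these members and 74.2% of those probe sets. The members thus differed from them in spread and in that share rather than in the size of the median difference. The comparison was made without a test, and levels above 12 were not matched. Separation was counted before quantile normalization only. After it, 20 of the 38 bright members were on the lower side in AKR, with a median difference of -0.0041.

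AKR replicate 2 stood apart. Over the members, the median value per array was 13.16, 12.98 and 13.18 in AKR, and 13.25, 13.25 and 13.26 in DBA. AKR replicate 2 gave the lowest value of 35 of the 49 members. Values of all probe sets were also spread least on that array, with an SD of 1.76, against 1.90 to 2.02 on the other 5 arrays, and its brightest decile lay 0.30 below the probe sets' own means. Without AKR replicate 2 the members' median difference was -0.06, and the brightest decile had a median of -0.12. Without AKR replicate 3 the members' median was -0.16. The sign of 42 members, 36 lower and 6 higher in AKR F1 tumours, was the same whichever single array was left out.

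**Figure D2:**
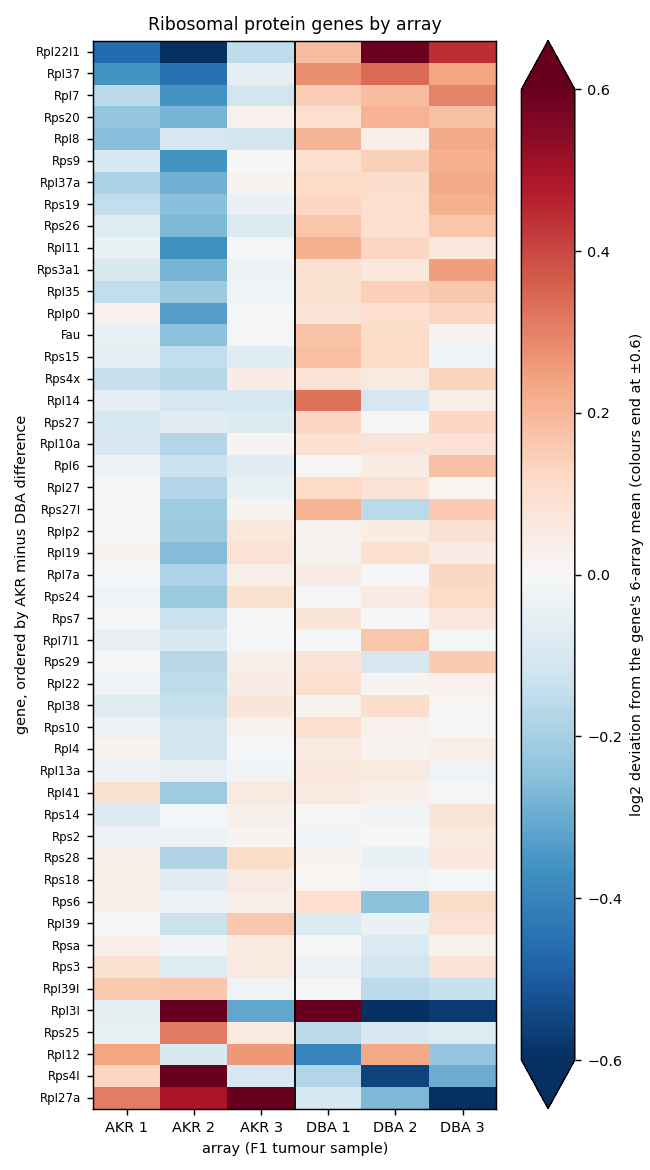
Log2 deviation of each member (rows, ordered by the difference between crosses) from its own mean over the 6 arrays (columns); blue is below and red above the mean. The column of AKR replicate 2 is blue in most rows, the DBA columns are pale red in the upper rows, and the strongest colours stand in the first rows and in the last few.

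The medians of both subunits were close. Large-subunit genes had a median difference of -0.11 with 21 of 26 lower in AKR F1 tumours, and small-subunit genes one of -0.10 with 17 of 23 lower. The members' further probe sets, which the choice of members did not use, are shown apart: of 52, 40 were on the lower side in AKR (median -0.17). None passed by limma, with 12 lower (23.1%, against 13.2% of all probe sets) and 5 higher (9.62%, against 12.9%) at an unadjusted limma p under 0.05. In the brightest decile 76.2% were on the lower side, and at that p 24.6% were lower and 4.42% higher.

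Among large-subunit genes, Rpl22l1 lay furthest lower in AKR F1 tumours. Rpl22l1 encodes a paralog that can take the place of Rpl22 in the ribosome. Its AKR values were 11.04, 10.89 and 11.35, and its DBA values 11.69, 12.09 and 11.94. All 3 AKR values lay below all 3 DBA values. Rpl22l1 was 1.76-fold higher in DBA F1 tumours, at a log2 difference of -0.82 (SE 0.171, limma adjusted p = 0.0922), and the difference ran from -0.94 to -0.57 over the alternatives other than array weights. It did not pass, and it has 1 probe set here.

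For Rpl22 itself the AKR values were 11.51, 11.39 and 11.58, and the DBA values 11.63, 11.56 and 11.57. Its groups overlapped, at a difference of -0.09, which was 0.16 after quantile normalization. The log2 ratio of Rpl22l1 to Rpl22 within an array was -0.48, -0.49 and -0.24 with the AKR parent, against 0.05, 0.54 and 0.38 with the DBA parent. The ratio was lower in all 3 AKR tumours, by 0.72 (exact two-sided permutation p = 0.1, the smallest that 3 against 3 arrays allow, and 0.167 adjusted over 5 paralog pairs). A dimmer probe set of Rpl22 differed by -0.32 (SE 0.325) and overlapped.

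Rpl37 and Rpl7, both proteins of the large subunit, came next. Rpl37 read 10.03, 9.95 and 10.34 in AKR, against 10.67, 10.73 and 10.63 in DBA, again without overlap, a 1.49-fold difference (log2 -0.57, SE 0.138, limma adjusted p = 0.104). Rpl7 read 12.64, 12.44 and 12.69 in AKR, against 12.95, 12.99 and 13.10 in DBA, also without overlap and 1.34-fold apart (log2 -0.42, SE 0.123, limma adjusted p = 0.127). Further Rpl7 probe sets differed by -0.28 and -0.38, so its 3 probe sets went the same way. Neither gene passed, and after quantile normalization Rpl37 differed by -0.33 and Rpl7 by -0.22.

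Further large-subunit members lay closer together. Rpl8 differed by -0.31 and Rpl37a by -0.30, both without overlap of the crosses at the brightest probe set. After quantile normalization they differed by -0.12 and -0.18. A further bright probe set of Rpl37a differed by -0.14, with overlap, and a dim one by -0.13, without. Rpl11, which binds the p53 regulator Mdm2 when ribosome assembly is disturbed, read 13.11, 12.78 and 13.14 in AKR, against 13.36, 13.28 and 13.22 in DBA. Its difference of -0.27 did not pass (limma adjusted p = 0.24), and was -0.16 without AKR replicate 2 and -0.09 after quantile normalization. Rpl13a, a protein that also silences the translation of certain mRNAs after interferon gamma, differed by -0.07, with 13.45, 13.42 and 13.46 in AKR against 13.54, 13.53 and 13.45 in DBA. Rplp0 (-0.21) and Rplp2 (-0.11) belong to the stalk that recruits elongation factors. The Rplp0 values did not overlap, but its AKR values of 13.16, 12.80 and 13.13 were set apart mostly by replicate 2: without it the difference was -0.09, and that of Rplp2 -0.02. After quantile normalization Rplp0 differed by -0.02 and Rplp2 by 0.0091.

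**Figure D3:**
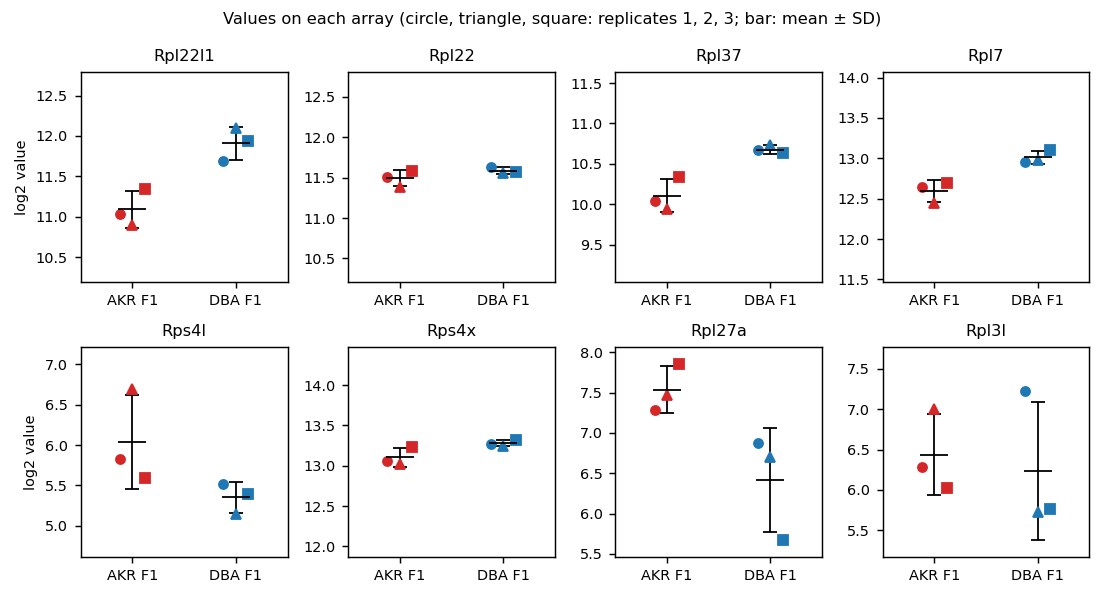
Log2 values of 8 members on each array of the AKR F1 (red) and DBA F1 (blue) tumours, with the mean and SD of each cross; every panel spans 2.6 log2 units. Rpl22l1, Rpl37 and Rpl7 are separated with AKR lower, Rps4l and Rpl27a are separated with AKR higher, and Rpl22, Rps4x and Rpl3l lie close or overlap.

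In the small subunit, the differences furthest below 0 were small. Rps20 had a log2 difference of -0.32, with 11.96, 11.92 and 12.22 in AKR against 12.29, 12.41 and 12.38 in DBA. Rps19 and Rps26, genes mutated in Diamond-Blackfan anaemia, differed by -0.29 each. At their brightest probe sets the crosses did not overlap in these 3 genes, and none passed by limma (adjusted p = 0.18, 0.178 and 0.18). A further bright probe set of Rps20 differed by -0.39 with overlap. Dim ones differed by 0.14 (AKR higher, without overlap) and -0.09 (with overlap). Rps9, at -0.30 (limma adjusted p = 0.202), also did not overlap at its brightest probe set. After quantile normalization Rps20 differed by -0.09, Rps19 by -0.08 and Rps26 by -0.13. Fau, whose product is cleaved into a ubiquitin-like protein and a small-subunit protein, read 13.25, 13.05 and 13.29 in AKR, against 13.47, 13.40 and 13.31 in DBA, a difference of -0.20 without overlap. It was -0.12 without AKR replicate 2 and -0.03 after quantile normalization. Rps4x differed by -0.18, and by -0.03 after quantile normalization.

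A few small-subunit members showed almost no difference. Rps6, the target of S6 kinases, read 9.17, 9.11 and 9.17 in AKR, against 9.24, 8.89 and 9.25 in DBA (difference 0.02). Rpsa, also known as the laminin receptor, differed by 0.04, and Rps3, at the mRNA entry of the small subunit, by 0.05. All of these overlapped between the crosses. Their SEs were 0.137, 0.107 and 0.118, so differences of this size could not be resolved with 3 arrays per cross.

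The members that lay higher in AKR F1 tumours were mostly dim. Rpl27a, a large-subunit gene, read 7.28, 7.46 and 7.86 in AKR, against 6.87, 6.70 and 5.68 in DBA. The crosses did not overlap, and DBA replicate 3 was the lowest. The gene lay 2.17-fold higher in AKR F1 tumours (log2 1.12, SE 0.33, limma adjusted p = 0.127), and did not pass. This reading is that of a dim probe set, and a still dimmer one differed by 0.35. A far brighter probe set, which lists Rpl27a with other symbols, read 13.14, 13.07 and 13.15 in AKR, against 13.15, 13.13 and 13.19 in DBA, with overlap and a difference of -0.04. The higher AKR value of Rpl27a was thus not seen there. Rpl12 (0.27, with overlap) and Rps25 (0.22, without) also lay higher at dim probe sets. Rps25 was 0.12 without AKR replicate 2, and Rpl12 was 0.14 when DBA replicate 1 was left out and 0.45 when DBA replicate 2 was. At their brighter probe sets of several symbols both had the opposite sign, -0.28 for Rpl12 and -0.46 for Rps25, with AKR below DBA on every array and limma adjusted p of 0.191 and 0.13. AKR/J and DBA/2J alleles can differ in the probed bases, and such a variant cannot be told apart from more or less RNA.

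The dim members often had a brighter reading elsewhere. Of 11 members with a mean value under 10, 7 had a brighter probe set whose annotation lists the member together with other symbols, at 12.10 to 14.29. These 7 were Rpl12, Rpl14, Rpl27a, Rpl39, Rps6, Rps25 and Rps27. There Rpl39 differed by -0.24 (0.03 at its dim probe set), Rpl14 by -0.15, Rps27 by -0.19 and Rps6 by 0.0082. The other 4, Rpl3l, Rpl7l1, Rpl39l and Rps4l, were all paralogs.

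The 6 measured paralogs did not move as 1 group: 3 lay higher and 3 lower in AKR F1 tumours. Rps4l, a gene similar to Rps4x, read 5.82, 6.69 and 5.60 in AKR, against 5.52, 5.14 and 5.40 in DBA. AKR replicate 2 was far above the other arrays, and the other AKR values were only just above the DBA values. Its difference of 0.69 (limma adjusted p = 0.191) was 0.36 without that array. The log2 ratio of Rps4l to Rps4x was 0.86 higher with the AKR parent (exact two-sided permutation p = 0.1, 0.167 adjusted over 5 pairs). This ratio was -7.23, -6.33 and -7.64 in AKR, against -7.76, -8.11 and -7.93 in DBA, again with AKR replicate 2 highest. The ratio also sets a dim gene against a bright one. Rps4l lay in decile 2, where the median was 0.23, and Rps4x in decile 10, where it was -0.21. The part of level in the ratio was not tested.

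Rpl3l, expressed in heart and skeletal muscle, read 6.28, 7.004 and 6.03 in AKR, against 7.22, 5.72 and 5.76 in DBA. The crosses overlapped, with DBA replicate 1 and AKR replicate 2 high. The mean of 10 skeletal muscle markers, all higher in AKR F1 tumours on average, was 8.75, 8.34 and 9.995 in AKR, against 11.66, 6.15 and 6.13 in DBA, also highest on DBA replicate 1. The part of muscle RNA in the Rpl3l values was not tested. Rpl39l, a paralog known from testis, differed by 0.20, Rps27l, a p53 target, by -0.14, and Rpl7l1 by -0.09. Against their parent genes, Rpl7l1 over Rpl7 was 0.32 higher in AKR F1 tumours (exact two-sided permutation p = 0.1), and Rpl39l over Rpl39 (0.17) and Rps27l over Rps27 (0.03) gave exact permutation p of 0.3 and 0.5, with both of these parents read at dim probe sets. After adjustment over the 5 pairs no p was below 0.167.

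Probe sets of 1 gene could disagree in sign. Of 23 members with more than 1 probe set, 9 had a probe set with the opposite sign, and none of these passed. In Rpl41, Rps14 and Rps18 the disagreeing values included bright probe sets and lay between -0.17 and 0.06; in the other 6 genes the disagreeing probe set was below a level of 8. Measured from the brightest probe set, the widest gap was in Rpl35, whose 5 bright probe sets lay lower in AKR F1 tumours by values from -0.43 to -0.27 and whose dim one, at 6.73, lay higher by 0.57. In Rps24, the brightest differed by -0.10 while its 2 dim ones went opposite ways, by 0.72 at a level of 7.12 and by -0.61 at a level of 7.35. In Rps10 the values were -0.08 and 0.54, and in Rps9 -0.30 and 0.22. Read only at probe sets made for a single transcript, those without an _a, _s or _x suffix, 24 members remained, 14 of them higher in AKR F1 tumours (median 0.035).

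Among other genes of translation, no gene of the 5 lists passed by limma. Of 28 measured translation initiation factors, 22 were on the lower side in AKR (median -0.30), 9 of them (32.1% of the list) at an unadjusted limma p under 0.05, where 1 (3.57%) was higher. For comparison, 13.2% of all probe sets were lower and 12.9% higher at that p, and 24.6% of the brightest decile were lower. Eif3m, a subunit of initiation factor eIF3, had a mean of 9.67 ± 0.16 in AKR against 10.45 ± 0.16 in DBA (SD, n = 3 per cross), and Eif3e, another subunit, 11.79 ± 0.09 against 12.35 ± 0.04. Their limma adjusted p were 0.0837 and 0.0863. Elongation factors and related genes lay closer to 0 (7 measured, median -0.07), with Eef1b2 at -0.33 and Eef1a2 at 0.39.

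A further list held 13 transcripts, other than ribosomal protein mRNAs, that carry the oligopyrimidine tract. All 10 that were measured were on the lower side in AKR (median -0.33), where 76.2% of the brightest decile were. Of these 10, 5 were at an unadjusted limma p under 0.05, against those 13.2% and 24.6%. The list is not complete: elongation factors and related genes were listed apart. Of the 7 measured there, 4 lay lower in AKR F1 tumours. Eef1a2 (0.39) and Eef2 (0.09) lay higher, and the kinase gene Eef2k differed by only 0.00029. Snhg1, a non-coding host gene of small nucleolar RNAs, had a mean of 10.26 ± 0.25 in AKR against 11.26 ± 0.02 in DBA (SD, n = 3 per cross; limma adjusted p = 0.0684). Btf3, of the nascent polypeptide-associated complex, differed by -0.58 (limma adjusted p = 0.0924). Of 54 ribosome biogenesis genes, 38 were on the lower side in AKR (median -0.15), with 12 lower (22.2%, against 13.2% of all probe sets) and 4 higher (7.41%, against 12.9%) at an unadjusted limma p under 0.05. Taf1b, of the RNA polymerase I promoter factor, differed by -0.81, and Nip7, a ribosome assembly factor, by -0.63. The mTOR pathway list had a median of -0.04 over 12 genes, 5 of them higher in AKR F1 tumours. Its Rps6kb2, a kinase of Rps6, was above its DBA level by 0.76 (limma adjusted p = 0.0851), and Mlst8, a subunit of mTOR complexes, by 0.32. Against the median of 0.05 over all probe sets and of -0.21 over the brightest decile, these medians are a description of the lists. They are given before quantile normalization only, after which the brightest decile had a median of 0.02.

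**Figure D4:**
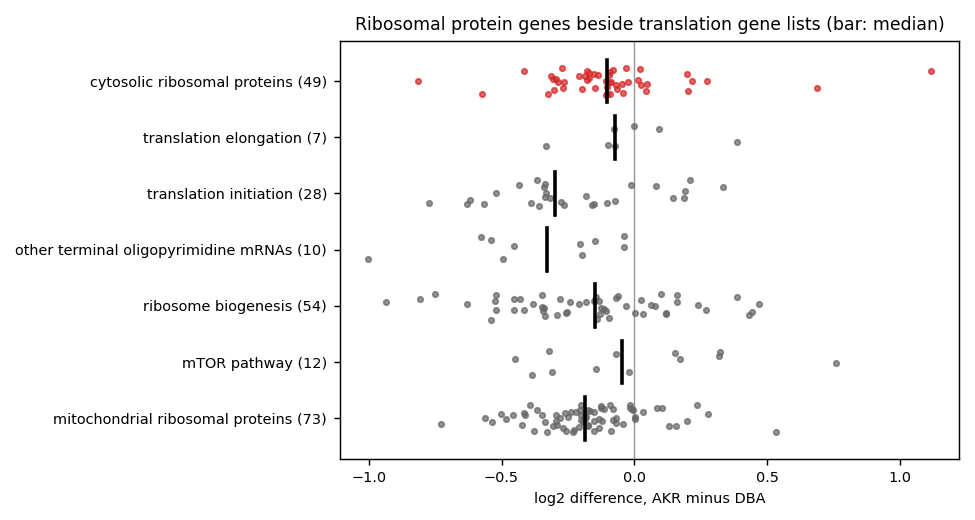
Log2 difference, AKR minus DBA, of each gene (points) in the cytosolic ribosomal protein genes (red) and in 6 lists of translation genes (grey), with the median of each as a bar and the number of genes in brackets. The middle of the members lies between -0.21 and -0.03, and the bars of initiation factors (-0.30) and of other oligopyrimidine mRNAs (-0.33) stand further below 0 than that of the members (-0.10).

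Marker genes gave the setting of these values. The mean of 12 mammary epithelial markers lay between 11.42 and 11.65 in AKR and between 11.001 and 11.58 in DBA. That mean was high on every array, but single markers were not: Krt5 and Krt14 each read 7.43 on DBA replicate 2. Smooth muscle and myoepithelial markers (6 measured, 1 higher in AKR F1 tumours) ran from 7.63 to 7.95 in AKR, against 7.93 to 10 in DBA. Markers of fibroblasts (9.25 to 10.33 in AKR and 8.76 to 10.47 in DBA) and macrophages (9.11 to 10.11 and 9.54 to 10.31) overlapped between the crosses. B and plasma cell markers did not, with 6.08 at most in AKR and 6.55 to 7.12 in DBA, although 2 of the 6 genes lay higher in AKR. Of 8 T and NK cell markers, 6 lay higher in AKR, 4 of them without overlap. Of 6 neutrophil markers, 4 lay higher, 3 of them without overlap, and 1 was separated with AKR lower. Of all probe sets, 23.4% were separated with AKR higher and 15.8% with AKR lower. Salivary gland markers were 10.74 on AKR replicate 2, where ribosomal protein values were lowest, and at most 7.86 on the other arrays. Gapdh controls, a sign of RNA integrity, gave 3′ minus 5′ values of 0.05 to 0.31 in AKR, against 0.12 to 1.20 in DBA. The part of these in the members' differences was not tested.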

How the data were processed

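Total RNA of snap-frozen tumours was extracted with Trizol and labelled for Affymetrix arrays, as the labels' protocols say. Source names gave the 2 groups of 3. Replicate numbers follow accession order. The deposited values are log2 expression values, read as such from their range of 3.65 to 14.73, and the submitters' processing notes list MAS5 as well as RMA without saying which made them. Array medians ran from 7.52 to 7.57. How background was corrected is not given in those sources, and without detection calls a dim value may be background.

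The 64 control probe sets were left out. Platform annotation gave 20380 probe sets 1 symbol, 691 several and 1555 none, and only the first kind was used to name genes. Each gene was read at its brightest probe set. limma 3.58.1 (R 4.3.3) compared the crosses (two-sided, Benjamini-Hochberg over 22626 probe sets, adjusted p 0.05), which was checked on simulated data. Paralog ratios were compared with exact permutation tests. SDs are over the 3 arrays of a cross, whose number limits the precision.

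Named were the 8 members with the smallest p in each direction, paralogs with their parents, 12 members known for other roles (of which Rplp1, Rps27a and Rpl5 had no probe set with a single symbol), 4 members with disagreeing probe sets and 2 genes of each of 5 translation lists. The members and lists were chosen with earlier results of these data known. The mitochondrial ribosome list was added after the data were seen. Promoter sequences are from RefSeq (GRCm38.p6). Alternatives were quantile normalization, array median centring, bright probe sets only, a trended and robust prior, array weights, other choices of probe set and leaving out arrays. Figures were drawn with matplotlib 3.10.9.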

Additional observations from a re-analysis of the deposited data

How the results depend on the processing

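No paired analysis was possible because the labels give no replicate numbers that the crosses share. The count of 22 called probe sets was 36 after quantile normalization, 102 among probe sets above the median level, 9969 with array weights and 657 when AKR replicate 2 and DBA replicate 1 were both left out, a setting chosen after seeing the data. It ran from 1 to 263 when single arrays were left out. The count of called members was 0 in every setting run except array weights (17), whose estimate did not converge. The members' median difference of -0.10 was 0.0091 after quantile normalization and 0.035 at probe sets without a suffix, and ran from -0.16 to -0.06 when single arrays were left out. The number of members higher in AKR F1 tumours was 27 after quantile normalization, 7 of 45 among probe sets above the median level and 8 to 12 when single arrays were left out. With AKR replicate 2 and DBA replicate 1 both left out, the median was -0.047 and 14 members were higher. With probe sets of several symbols included, chosen after seeing the data, 66 of 76 genes lay lower in AKR F1 tumours (median -0.16).

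Of 462 values of 32 named members under alternatives, 436 kept their direction and 26 did not. After quantile normalization these were Rpl22 (0.16), Rpl7l1 (0.11), Rps24 (0.082), Rps27l (0.076), Rpl13a (0.074), Rps10 (0.024) and Rplp2 (0.0091). At probe sets without a suffix they were Rpl35 (0.57), Rps10 (0.54), Rps9 (0.22) and Rps20 (0.14). With probe sets of several symbols included they were Rps25 (-0.46), Rpl12 (-0.28), Rpl39 (-0.24) and Rpl27a (-0.036). With array weights they were Rpl39 (-0.0065) and Rps6 (-0.0026), and with median centring Rps6 (-0.0020). With arrays left out, Rpl3l ran from -0.080 to 0.70, Rpl39 from -0.050 to 0.096, Rps6 from -0.095 to 0.098, Rps3 from -0.00031 to 0.099 and Rps27l from -0.25 to 0.0060. Except where the setting itself shows it, the cause was not tested.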

Other observations

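Probe sets annotated to a ribosomal protein gene together with other symbols were left out of the members. Of 102 such probe sets, 84 (82.4%) were on the lower side in AKR (median -0.19 on the log2 scale). Of all probe sets 45.4% were on that side, and of the brightest decile 76.2%. None of the 102 passed by limma. At an unadjusted limma p under 0.05, 26 were lower (25.5%, against 13.2% of all probe sets and 24.6% of the brightest decile). On the higher side were 3 (2.94%, against 12.9% and 4.42%). The levels of these probe sets were not matched.

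The mitochondrial ribosome makes the proteins encoded in mitochondrial DNA. Of its 73 measured nuclear genes, 62 (84.9%) were on the lower side in AKR (median -0.19). None passed by limma, with 12 lower (16.4%, against 13.2% of all probe sets) and 1 higher (1.37%, against 12.9%) at an unadjusted limma p under 0.05. The mean of the list was 9.34, 9.10 and 9.24 in AKR, against 9.57, 9.24 and 9.40 in DBA, so the crosses overlapped. These means lay in deciles 8 and 9 of level. There 62.9% and 70.2% of all probe sets were on the lower side in AKR (medians -0.14 and -0.21).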
